A study of Mus musculus with 6 samples.

Results

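The sarcomeric myosins of the embryonic mouse heart were taken as 10 named genes: the heavy chain genes Myh6, Myh7, Myh7b and Myh3, the light chain genes Myl1, Myl2, Myl3, Myl4 and Myl7, and Mybpc3, which encodes the cardiac myosin-binding protein C. All array rows whose platform annotation gave exactly 1 of these symbols were used. Each of the 10 genes had 1 such row, so 10 of the 22180 genes measured were described. The samples were pools of hearts dissected at embryonic day 9.5 from strain C57BL/6. In 3 pools the genotype was Hdac3-flox/flox; Isl1-Cre, called Hdac3-Isl1KO, and in 3 it was Hdac3-flox/flox, in which the floxed gene is intact and no Cre is present. Isl1-Cre acts in cells that express Isl1, among them second heart field progenitors of the outflow tract and right ventricle. Each Hdac3-Isl1KO pool therefore also held cells with an intact gene. The sources used here do not give the number of hearts per pool, and p-values measure the spread between pools, which may be partly technical.

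Striated muscle contracts when myosin heads of the thick filament pull on actin. Each myosin holds a pair of heavy chains, which carry the motor, and each heavy chain binds 1 essential and 1 regulatory light chain at its lever arm. Hearts use several isoforms of each. Myh6 (alpha) and Myh7 (beta) are the cardiac heavy chains, Myl3 and Myl2 are the essential and regulatory light chains typical of ventricle, and Myl4 and Myl7 are their counterparts typical of atrium. Before the chambers mature these patterns are still broad, and Myl7 is made throughout the early heart tube. The cardiac heavy chain genes also carry microRNA genes in their introns: Mir208a in Myh6, Mir208b in Myh7 and Mir499 in Myh7b.

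The 3 mature microRNAs below are shown because the rows of their genes were read beside those of their host genes. Capitals mark the seed, bases 2 to 8 from the 5′ end, by which a microRNA recognises targets. Sequences are from RefSeq, build GRCm38.p6, read on the minus strand at chr14:54949072-54949093 (miR-208a-3p) and chr14:54975710-54975731 (miR-208b-3p) and on the plus strand at chr2:155622893-155622913 (miR-499-5p).
mmu-miR-208a-3p: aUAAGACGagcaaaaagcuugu
mmu-miR-208b-3p: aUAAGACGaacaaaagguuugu
mmu-miR-499-5p: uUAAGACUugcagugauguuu
The miR-208 pair shared the seed UAAGACG, which 2 of the 1679 mature names in the RefSeq table held. They differed at 3 of 22 bases, written with the miR-208a-3p base first and counted from the 5′ end: G10A, A16G and C18U. The seed of miR-499-5p was the same up to its last base, which differed by G8U.

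The 250 bases before the transcription start are shown for Myl2, Myl7 and Mybpc3, the 3 cardiac genes whose arrays of the 2 groups were separated by the widest gaps. Capitals mark matches, on either strand, to the MEF2 site (bound by MEF2 factors), the CArG box (bound by serum response factor), GATAA (the core bound by GATA factors) and TATAAA. Sequences are from RefSeq, build GRCm38.p6, and run 5′ to 3′ along the gene. Myl2 has 2 annotated starts, with windows at chr5:122092474-122092723 and chr5:122092939-122093188 on the plus strand. The windows of Myl7 and Mybpc3 lie at chr11:5898783-5899032 on the minus strand and chr2:91117894-91118143 on the plus strand.
Myl2, first start: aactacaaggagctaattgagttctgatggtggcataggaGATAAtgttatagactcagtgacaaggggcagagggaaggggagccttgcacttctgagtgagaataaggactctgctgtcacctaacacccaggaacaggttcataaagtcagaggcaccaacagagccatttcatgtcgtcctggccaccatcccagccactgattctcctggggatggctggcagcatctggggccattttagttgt
Myl2, second start: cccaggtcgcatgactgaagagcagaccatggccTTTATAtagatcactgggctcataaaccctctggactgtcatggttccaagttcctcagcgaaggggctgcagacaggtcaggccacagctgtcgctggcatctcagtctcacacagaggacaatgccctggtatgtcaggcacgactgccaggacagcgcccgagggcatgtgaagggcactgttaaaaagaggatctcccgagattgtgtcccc
Myl7: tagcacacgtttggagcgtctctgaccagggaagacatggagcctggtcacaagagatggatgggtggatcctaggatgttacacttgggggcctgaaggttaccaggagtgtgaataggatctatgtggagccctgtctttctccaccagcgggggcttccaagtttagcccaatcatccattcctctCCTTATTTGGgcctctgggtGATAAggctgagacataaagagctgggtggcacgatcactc
Mybpc3: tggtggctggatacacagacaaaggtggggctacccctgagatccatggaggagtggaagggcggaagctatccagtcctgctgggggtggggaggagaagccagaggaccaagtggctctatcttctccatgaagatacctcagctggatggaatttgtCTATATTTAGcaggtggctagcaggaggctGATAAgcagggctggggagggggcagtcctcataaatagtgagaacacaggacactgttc
Myl7 held a CArG box starting at position -61 and a GATAA match at -41, counted from the start site. Mybpc3 held a MEF2 site at -90 and a GATAA match at -60. Over all 10 genes there were 12 windows, of which 5 held GATAA, 3 held TATAAA, 2 held a CArG box (Myl3 and Myl7) and 1 a MEF2 site. Among all 32851 windows of the table these shares were 22.6%, 12.4%, 1.47% and 2.92%. No pair of these 4 motifs overlapped in the 12 windows. Another 4 motifs were searched and are not marked. CANNTG (N for any base) was held by 11 of the 12 windows, AAGTG by 7, CATTCC by 5 and AGGTGT by 0. Among all windows these shares were 66.2%, 40.7%, 12.6% and 11.8%. The 2 windows of Myh7 overlap, so a CANNTG and an AAGTG site were counted in both. By gene, 9 of the 10 held CANNTG and 6 held AAGTG.

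The data were RMA log2 values, which are background-corrected, quantile-normalised probe set values on the log2 scale, and a difference of 1 is a 2-fold change. Array medians lay between 5.64 and 5.71 and correlations between arrays between 0.980 and 0.989. The array that stood furthest from the rest was Hdac3-flox/flox replicate 2, whose correlation with the other arrays averaged 0.982, against 0.985 to 0.987 for the others. Hdac3 itself read 9.11, 9.20 and 9.31 in Hdac3-Isl1KO, against 9.67, 9.73 and 9.64 in Hdac3-flox/flox, a difference of -0.47 (limma adjusted p = 0.0636), which did not pass the threshold of 0.05. It passed with either filter on dim genes (limma adjusted p = 0.0109 and 0.0335), either prior trended on brightness (0.00111 and 0.00108) and array weights (0.0419), with a range of 0.00108 to 0.244 over all settings. Tissue identity was checked on cardiac thin filament genes, where Actc1 averaged 13.4 and 13.4 and Tnnt2 13.1 and 13.2 in Hdac3-Isl1KO and Hdac3-flox/flox, near the top of the array range (14.2). In pooled whole hearts, fewer cells of a type and less RNA per cell cannot be told apart.

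None of the 10 genes passed the adjusted threshold (limma over all 22180 genes, Benjamini-Hochberg), where 0.428% of all genes were called, 0.23% upward and 0.198% downward. At an unadjusted limma p under 0.05 there were 5, of which 3 stood below 0 (Myh7b, Myl2 and Mybpc3) and 2 above (Myh3 and Myl7), against a background of 7.96% lower and 6.57% higher. That count of 5, beside 3223 of all genes, was 2 without Hdac3-Isl1KO replicate 1, beside 3044. It was 3 without Hdac3-Isl1KO replicate 2, Hdac3-Isl1KO replicate 3 or Hdac3-flox/flox replicate 1, beside 2318, 2385 and 2695. Without Hdac3-flox/flox replicate 2 or replicate 3 it was 5 and 4, beside 2740 and 3360. Quantile normalization and either prior trended on brightness gave 7, beside 3236, 3734 and 3729, and the other settings 3 to 5. In 6 genes every Hdac3-Isl1KO array lay below every Hdac3-flox/flox array: Myh6, Myh7, Myh7b, Myl2, Myl3 and Mybpc3. Over all genes 12.4% were separated in that direction. In 2 genes, Myh3 and Myl7, every Hdac3-Isl1KO array lay above, where the background was 9.41%. The groups overlapped for Myl1 and Myl4. Differences ran from -0.32 to 0.35 with a median of -0.085, and 7 of 10 were below 0, against a median of 9.4e-05 over all genes with 50% below 0. Of the members, 9 lay above the 75th percentile row (7.34), a limit chosen after the data were seen. Among the 7025 genes that bright the median was -0.032, 60.4% were below 0 and 23.4% were separated with Hdac3-Isl1KO lower, so bright genes in general leaned the same way.

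**Figure D1:**
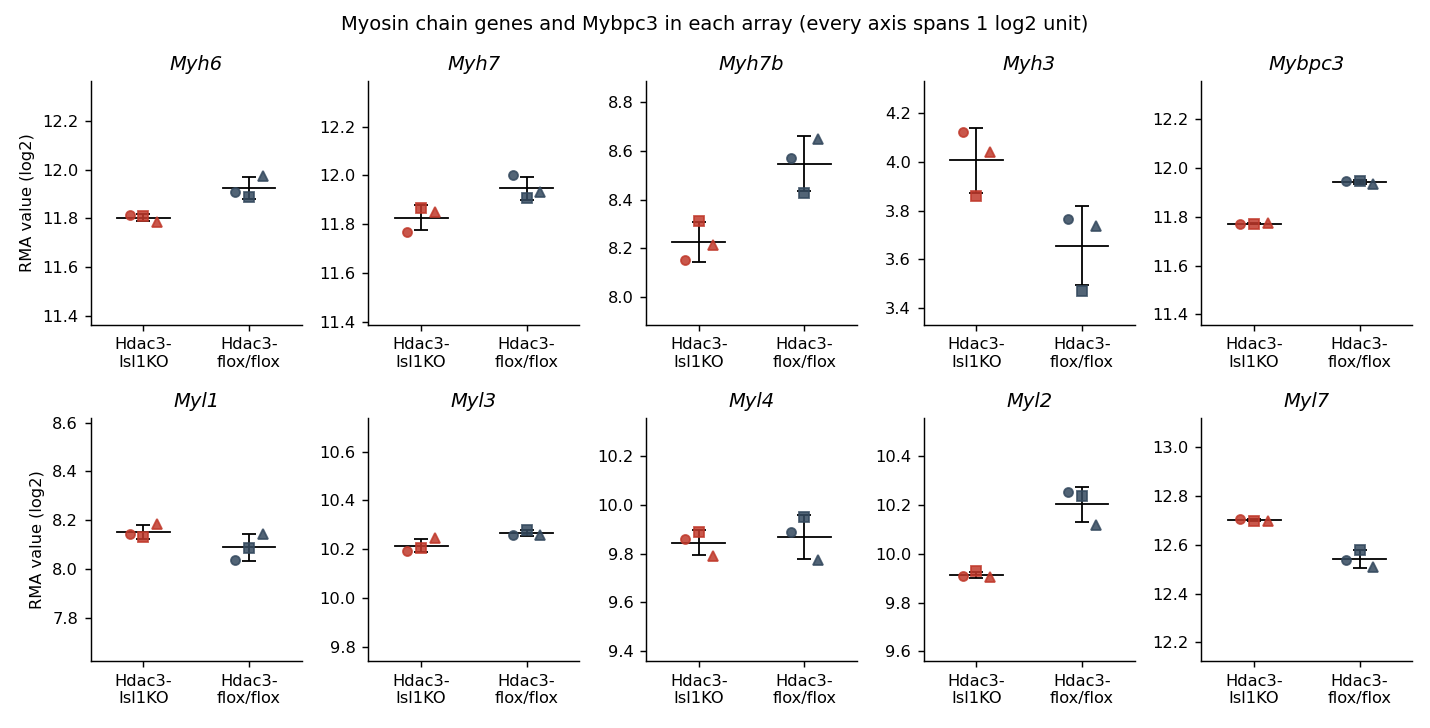
RMA values (log2) of the 10 genes in each array, Hdac3-Isl1KO left and Hdac3-flox/flox right, with circles, squares and triangles for replicates 1, 2 and 3, and bars for the mean and SD of 3 arrays. The groups are separated in 8 of 10 panels, downward in 6 and upward in Myh3 and Myl7.

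**Figure D2:**
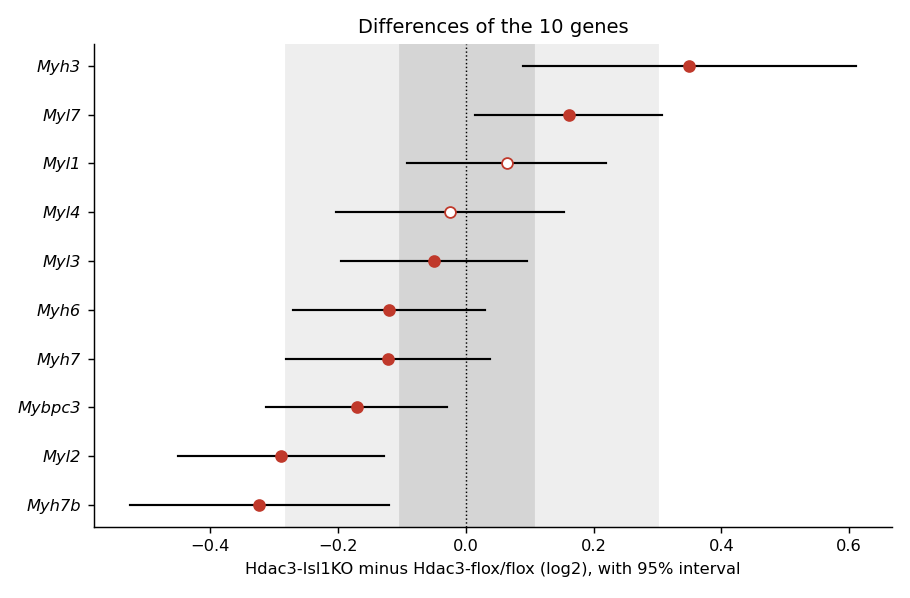
Difference of Hdac3-Isl1KO minus Hdac3-flox/flox (log2, limma 95% interval) for each gene, with open points where the groups overlapped. Shaded bands hold the 25th to 75th (-0.10 to 0.11) and the 5th to 95th percentile (-0.28 to 0.30) of all genes, and Myh7b, Myl2 and Myh3 lie outside the wider band.

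The 2 main cardiac heavy chains had small differences of nearly equal size. Myh6, the alpha chain, read 11.81, 11.81 and 11.79 in Hdac3-Isl1KO, against 11.91, 11.89 and 11.97 in Hdac3-flox/flox. The difference was -0.12 (95% interval -0.27 to 0.030), or 1.09-fold, with a limma adjusted p of 0.442. Myh7, the beta chain, read 11.77, 11.86 and 11.85 in Hdac3-Isl1KO, against 12.00, 11.91 and 11.93 in Hdac3-flox/flox. Its difference was also -0.12 (-0.28 to 0.038, limma adjusted p = 0.468). For both genes the highest Hdac3-Isl1KO array lay below the lowest Hdac3-flox/flox array, by 0.073 for Myh6 and 0.044 for Myh7. The genes lie next to each other on chromosome 14, with 0 protein-coding genes starting between them, and are close in sequence, so probes may read them in common, which was not tested.

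Taken within each array, Myh7 minus Myh6 was -0.047, 0.054 and 0.062 in Hdac3-Isl1KO, against 0.091, 0.021 and -0.041 in Hdac3-flox/flox. The groups overlapped, and their means differed by -0.00033. The size of such a within-array value has no meaning, since probe sets differ in brightness, and only its difference between groups compares the changes of the genes.

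Myh7b, a slow-type heavy chain gene that in mammals makes little protein in heart but carries Mir499, had the most negative difference of the 10. It read 8.15, 8.31 and 8.21 in Hdac3-Isl1KO, against 8.57, 8.43 and 8.65 in Hdac3-flox/flox. The groups were 0.11 apart, with a difference of -0.32 (-0.53 to -0.12), or 1.25-fold lower, an unadjusted p of 0.00704 and a limma adjusted p of 0.184. It passed with a mean-trended variance prior, which lets the assumed spread depend on brightness (limma adjusted p = 0.0304), and ranged from 0.0304 to 0.412 over all settings. Without Hdac3-flox/flox replicate 2, the array nearest to the Hdac3-Isl1KO values, the difference was -0.38.

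Myh3, the embryonic skeletal muscle heavy chain, was the only dim member. Its values of 4.12, 3.86 and 4.04 in Hdac3-Isl1KO, against 3.77, 3.47 and 3.73 in Hdac3-flox/flox all lay below the 25th percentile row (4.45), where signal cannot be separated from background in these data. The difference was 0.35 (0.089 to 0.61, limma adjusted p = 0.237), and the lowest array was Hdac3-flox/flox replicate 2, without which it was 0.26.

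The ventricular regulatory light chain Myl2 and the atrial one, Myl7, differed in opposite directions. Myl2 read 9.91, 9.93 and 9.91 in Hdac3-Isl1KO, against 10.25, 10.24 and 10.12 in Hdac3-flox/flox. The Hdac3-Isl1KO arrays lay close together (SD 0.012, n = 3), and the lowest Hdac3-flox/flox array lay 0.19 above the highest of them, the widest gap among the 10 genes. The difference was -0.29 (-0.45 to -0.13), or 1.22-fold lower, with an unadjusted p of 0.00394 and a limma adjusted p of 0.150. Myl2 passed when genes below the median row were left out (limma adjusted p = 0.0371) and with either mean-trended prior (0.00607 and 0.00589), and its adjusted p ranged from 0.00589 to 0.366 over all settings. Without Hdac3-flox/flox replicate 2 the difference was -0.27.

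Myl7 read 12.71, 12.70 and 12.70 in Hdac3-Isl1KO, against 12.54, 12.58 and 12.51 in Hdac3-flox/flox. Every Hdac3-Isl1KO array was higher, by at least 0.12. The difference was 0.16 (0.014 to 0.31), or 1.12-fold, with an unadjusted p of 0.0358 and a limma adjusted p of 0.305, range 0.0105 to 0.533 over all settings. It too passed with either mean-trended prior (limma adjusted p = 0.0167 and 0.0105), and it was 0.18 without Hdac3-flox/flox replicate 2.

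Within each array, Myl2 minus Myl7 was -2.80, -2.77 and -2.79 in Hdac3-Isl1KO, against -2.28, -2.34 and -2.39 in Hdac3-flox/flox. The groups were separated and their means differed by -0.45. This separation was fixed by the values above, since Myl2 was lower and Myl7 higher in every Hdac3-Isl1KO array. It restates those 2 differences and is no further result. The SDs were 0.015 and 0.053 (n = 3 each). An exact permutation test of 3 arrays against 3 cannot go below p = 0.1 for such a value, and none is given.

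For the essential light chains, the ventricular and atrial forms both had differences close to 0. Myl3, the ventricular form, read 10.19, 10.21 and 10.24 in Hdac3-Isl1KO, against 10.26, 10.28 and 10.26 in Hdac3-flox/flox. The groups were separated by 0.012 only, with a difference of -0.050 (-0.20 to 0.095, limma adjusted p = 0.755). Myl4, the atrial and embryonic form, read 9.86, 9.89 and 9.79 in Hdac3-Isl1KO, against 9.89, 9.95 and 9.77 in Hdac3-flox/flox. Its groups overlapped, with a difference of -0.025 (-0.20 to 0.15, limma adjusted p = 0.914) whose sign turned without Hdac3-Isl1KO replicate 3 (0.0038) or Hdac3-flox/flox replicate 2 (0.015). Myl3 minus Myl4 within an array was 0.33, 0.32 and 0.46 in Hdac3-Isl1KO, against 0.37, 0.33 and 0.48 in Hdac3-flox/flox. These groups overlapped, and their means differed by -0.025.

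The 2 ventricular light chains were set against each other in the same way. Myl2 minus Myl3 was -0.28, -0.28 and -0.34 in Hdac3-Isl1KO, against -0.0057, -0.040 and -0.14 in Hdac3-flox/flox. The groups were separated, with means that differed by -0.24. This separation too was fixed by the separate values of the 2 genes and is no further result.

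**Figure D3:**
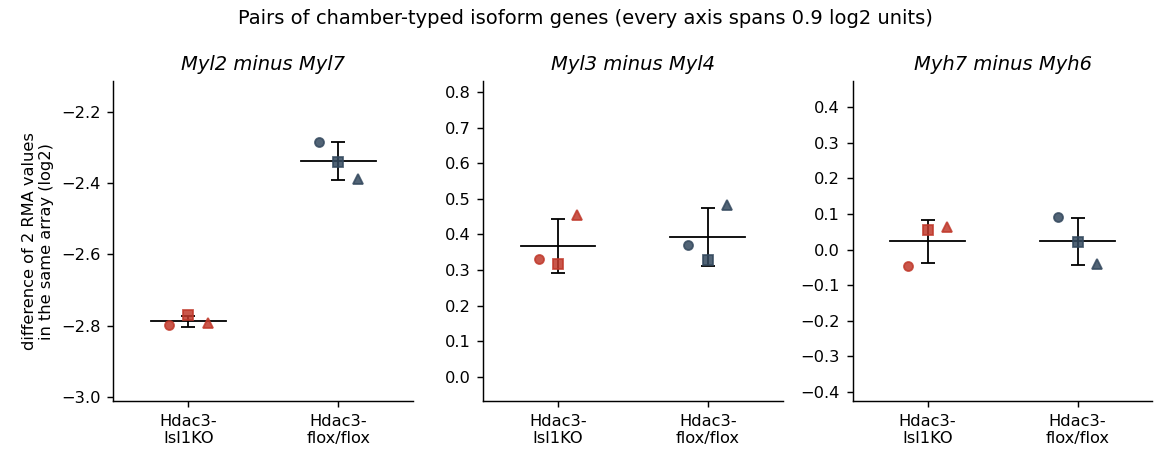
Difference of RMA values (log2) of 2 genes in the same array for Myl2 minus Myl7, Myl3 minus Myl4 and Myh7 minus Myh6, with Hdac3-Isl1KO left and Hdac3-flox/flox right, 1 point per array and bars for the mean and SD. Myl2 minus Myl7 is lower in all 3 Hdac3-Isl1KO arrays, which follows from the separate values of the 2 genes, and the groups of the other pairs overlap.

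Myl1, the fast skeletal essential light chain, which the early heart also makes, read 8.14, 8.13 and 8.18 in Hdac3-Isl1KO, against 8.04, 8.08 and 8.14 in Hdac3-flox/flox. The groups overlapped (difference 0.064, -0.091 to 0.22, limma adjusted p = 0.701). Of 11 skeletal muscle markers, 9 had positive differences with a median of 0.14, and 0 passed with limma. Their mean level ran from 6.08 to 6.20 in Hdac3-Isl1KO and from 5.95 to 6.03 in Hdac3-flox/flox. The defining regulators Myod1 (5.72 and 5.61 in Hdac3-Isl1KO and Hdac3-flox/flox) and Myog (6.03 and 6.04) stood near the median row (5.66). The smallest p-values of the list belonged to 3 other genes. Tnnc2, the fast skeletal troponin C, averaged 7.24 in Hdac3-Isl1KO, against 6.89 in Hdac3-flox/flox, with separated groups (difference 0.36, unadjusted p = 0.0345, limma adjusted p = 0.301). Tnnt3, the fast skeletal troponin T, differed by 0.22 with overlapping groups (limma adjusted p = 0.429), and Myf5, a regulator of early muscle precursors, by 0.26 with overlapping groups (0.458). The part of skeletal muscle cells in the Myl1 and Myh3 values was not tested.

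Mybpc3, whose product links the thick filament to actin and limits the speed of contraction, had the tightest replicates of the 10 genes. All 3 Hdac3-Isl1KO arrays read 11.77, while the Hdac3-flox/flox arrays read 11.95, 11.95 and 11.93. The SDs were 0.0011 and 0.0071 (n = 3 each) and the gap between groups was 0.16. The difference was -0.17 (-0.31 to -0.029), or 1.13-fold lower. Its unadjusted p was 0.0250 and its limma adjusted p 0.271, since limma's variance prior over all genes widens so small a spread. With the mean-trended prior it passed (limma adjusted p = 0.0115, and 0.00813 with robust estimation), and over all settings the adjusted p ranged from 0.00813 to 0.508. Without Hdac3-flox/flox replicate 2 the difference was -0.17.

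The rows of Mir208a and Mir208b had larger negative differences than those of their hosts, while the Mir499 row did not. Mir208a read 7.07, 6.45 and 6.65 in Hdac3-Isl1KO, against 7.35, 7.57 and 7.10 in Hdac3-flox/flox, a difference of -0.62 (-1.05 to -0.18, limma adjusted p = 0.218), against -0.12 for Myh6. The groups were separated narrowly, and Hdac3-flox/flox replicate 2 was the highest array. Mir208b read 5.87, 5.74 and 5.70 in Hdac3-Isl1KO, against 6.17, 6.46 and 6.18 in Hdac3-flox/flox, a difference of -0.49 (-0.74 to -0.25), against -0.12 for Myh7. Its unadjusted p was 0.00191 and its limma adjusted p 0.113. It passed when genes below the median row were left out (limma adjusted p = 0.0275) and with either mean-trended prior (0.0365 and 0.0370). Without Hdac3-flox/flox replicate 2 the differences were -0.50 for Mir208a and -0.40 for Mir208b.

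Within arrays, Mir208a minus Myh6 was -4.74, -5.36 and -5.13 in Hdac3-Isl1KO, against -4.56, -4.32 and -4.88 in Hdac3-flox/flox, with overlapping groups. Mir208b minus Myh7 was -5.89, -6.12 and -6.15 in Hdac3-Isl1KO, against -5.84, -5.45 and -5.75 in Hdac3-flox/flox, which were separated. The group means of these values differed by -0.49 and -0.37. Mir499 lay between 3.86 and 4.07 in Hdac3-Isl1KO, against 3.79 to 3.93 in Hdac3-flox/flox, below the 25th percentile row. Its groups overlapped (difference 0.11, limma adjusted p = 0.603), while its host Myh7b stood at -0.32. Of 478 microRNA genes measured, 0 were called (limma), with 44 lower and 19 higher at an unadjusted p under 0.05. Over all genes 7.96% were lower and 6.57% higher at that p. Of these 478, 253 were below 0 with a median of -0.014. With Hdac3-Isl1KO lower 45 were separated and with Hdac3-Isl1KO higher 20, against 12.4% and 9.41% of all genes. Where the probes of these rows lie relative to the hairpins and to host introns is not known here, so they may read host precursor RNA and the miR-208 pair may be read in common.

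**Figure D4:**
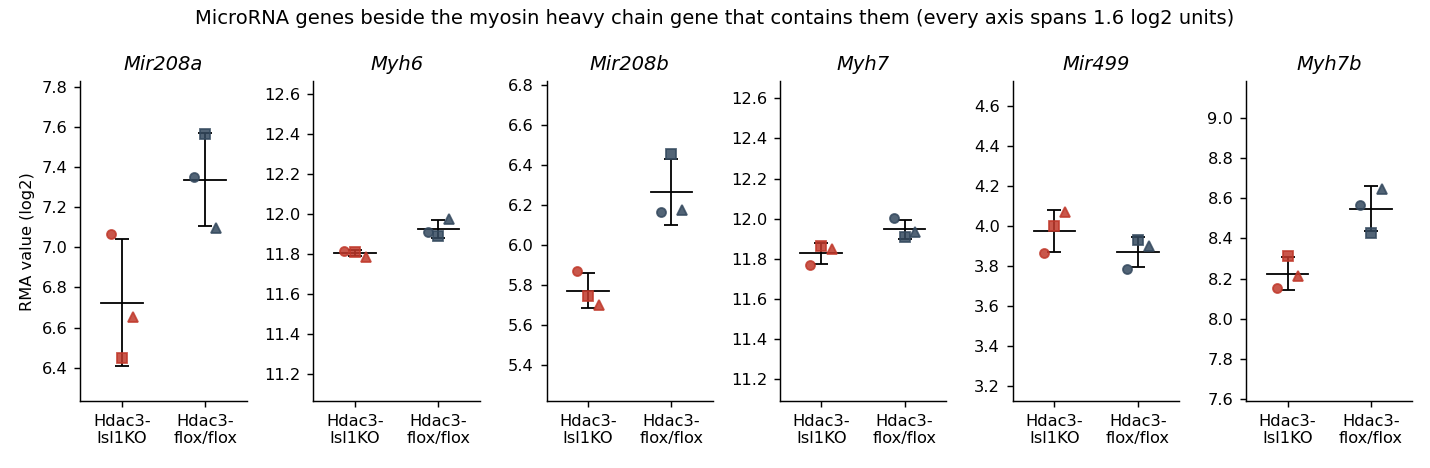
RMA values (log2) of Mir208a, Mir208b and Mir499, each left of its host gene, by array, with Hdac3-Isl1KO left and Hdac3-flox/flox right in each panel, and bars for the mean and SD. Mir208a and Mir208b are lower in all 3 Hdac3-Isl1KO arrays by mean differences of -0.62 and -0.49, against -0.12 for both hosts.

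Other genes of the contractile apparatus were read from the same fit. Of 13 other thick filament and striated myosin genes, 0 passed with limma, 6 were above and 7 below 0, and 10 lay below the median row. Mylpf, the fast skeletal regulatory light chain, read 6.43, 6.72 and 6.46 in Hdac3-Isl1KO, against 6.06, 5.71 and 6.00 in Hdac3-flox/flox. The groups were separated, with a difference of 0.62 (0.33 to 0.91, limma adjusted p = 0.103). Myom1, an M-band protein that ties thick filaments together, stood at 10.5 and 10.7 (difference -0.15, limma adjusted p = 0.329).

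Of a list of 12 thin filament, Z-disc and titin genes that also held the calcium store gene Casq2, 0 passed with limma. In this list 7 were below 0 and the median was -0.054. Groups were separated with Hdac3-Isl1KO lower in 5 and higher in 1, against 12.4% and 9.41% of all genes. Ttn, the giant spring of the sarcomere, differed by -0.19 (limma adjusted p = 0.247), Acta1, the skeletal actin that embryonic hearts also make, by 0.17 (0.325), and Casq2, a calcium store protein, by -0.20 (0.343). The mean level of these 12 ran from 10.61 to 10.64 in Hdac3-Isl1KO and from 10.67 to 10.67 in Hdac3-flox/flox. The members' own mean level ran from 9.84 to 9.85 in Hdac3-Isl1KO and from 9.88 to 9.92 in Hdac3-flox/flox.

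Chamber and regulator genes were read beside the isoforms. Of 5 ventricular markers 4 were below 0 (median -0.095), and so were 4 of 5 atrial markers (median -0.085), with 0 passing in either list (limma). Pln, the phospholamban gene, differed by -0.43 (limma adjusted p = 0.0636), Cited1 by -0.36 (0.180) and Hand1 by 0.16 (0.379). Pln did pass under quantile normalization (limma adjusted p = 0.0495), either filter on dim genes (0.0106 and 0.0325) and array weights (0.0483). It also passed with either mean-trended prior (limma adjusted p = 0.000344 and 0.000267), with a range of 0.000267 to 0.248 over all settings. On the atrial side Kcnj3, a potassium channel gene, differed by -0.28 (limma adjusted p = 0.171) and Sln, which restrains the atrial calcium pump, by -0.35 (0.285). Nr2f2, an atrial factor, went the other way, by 0.16 with overlapping groups (limma adjusted p = 0.440). The Sln groups overlapped, and its means of 3.82 in Hdac3-Isl1KO and 4.17 in Hdac3-flox/flox lay below the 25th percentile row, where signal cannot be separated from background. Of 16 transcription factors and receptors known to act on sarcomere genes, 8 stood above and 8 below 0, with a median of 0.0027 and 0 past the threshold (limma). Tbx5 (-0.18), Mef2c (0.14) and Srf (0.20) had the smallest p-values, with limma adjusted p-values of 0.273, 0.393 and 0.398. Irx4, a ventricular factor, differed by -0.016 (limma adjusted p = 0.939).

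**Figure D5:**
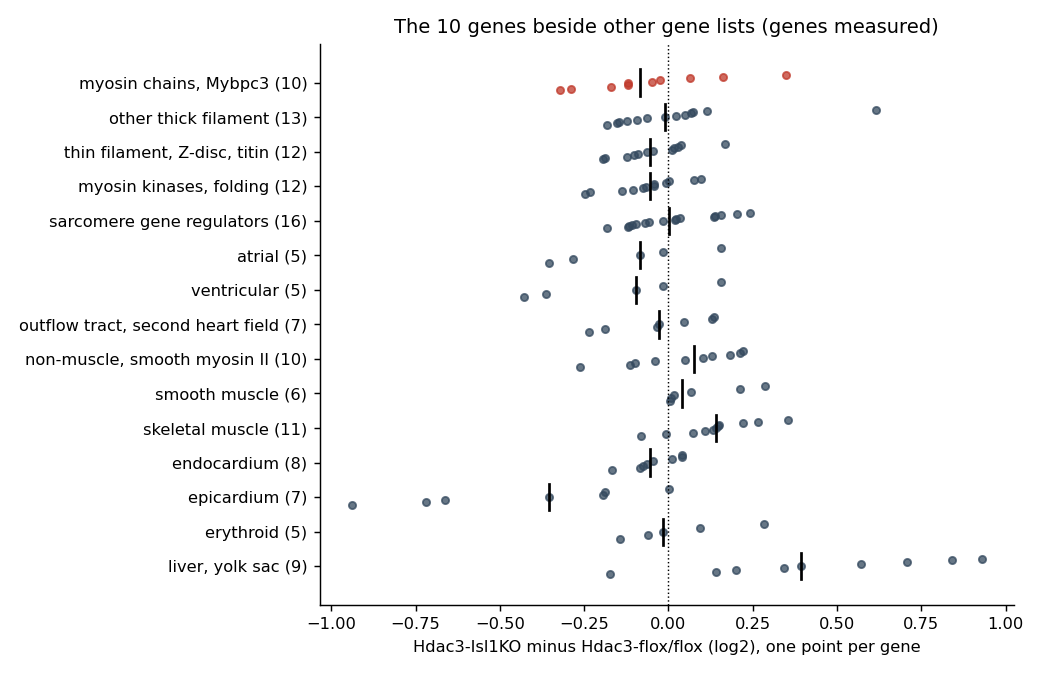
Difference of Hdac3-Isl1KO minus Hdac3-flox/flox (log2) for each gene of the myosin group, in red, and of 14 other lists, with a bar at the median and the number of genes measured in brackets. The myosin median is -0.085, with single genes on both sides of 0, while the epicardial and the liver and yolk sac lists have medians of -0.36 and 0.39.

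Markers of other tissues differed between the same groups. Of 7 epicardial markers 2 fell, Upk3b and Upk1b. In that list 6 were below 0, while Wt1 differed by 0.0014 with overlapping groups. Its mean level was 7.61 to 7.66 in Hdac3-Isl1KO, against 8.02 to 8.10 in Hdac3-flox/flox. Of 9 liver and yolk sac markers 1 rose, Fgb, and 5 lay below the median row. In that list 8 were above 0, while Fga differed by -0.17 with overlapping groups. Mean levels were 5.73 to 5.76 in Hdac3-Isl1KO, against 5.19 to 5.41 in Hdac3-flox/flox. Of 6 trophoblast markers, most of them picked with their values known, 4 rose. Tpbpa and Ascl2 were not called, with differences of 0.096 and -0.044 and overlapping groups. The mean levels of the list were 6.25 to 6.37 in Hdac3-Isl1KO, against 5.24 to 5.48 in Hdac3-flox/flox. These rises and falls were called with limma, at adjusted p-values from 0.00127 to 0.0300. Over all genes 0.23% were called upward and 0.198% downward. Smooth muscle markers were above 0 in 6 of 6 genes (median 0.041, 0 called with limma), and endocardial and erythroid markers had medians of -0.055 and -0.017 with 0 called. The part of cell composition in the myosin values was not tested.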

How the data were processed

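The authors deposited log2 expression values from Affymetrix arrays, made per the submitters' processing notes with oligo and RMA. The sources used here do not give their versions, the genome build or the annotation. Per the labels, labelled cDNA came from 100 ng total RNA. Of 41345 rows, 23521 had 1 gene symbol in the platform annotation and 0 symbols changed on matching gene numbers to RefSeq. For genes with several rows the brightest was used (22180 genes), with no filter on dim genes.

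Hdac3-Isl1KO minus Hdac3-flox/flox differences were tested by limma 3.58.1 under R 4.3.3 (lmFit, eBayes with a constant prior, two-sided, 6.92 degrees of freedom with the prior). Adjustment was by Benjamini-Hochberg over all genes, threshold 0.05. The steps were tested on simulated data. No scan dates or detection calls were used, so array batches cannot be tested. The number of arrays limits precision. RMA compresses differences of dim and of very bright rows. Plots were drawn with matplotlib 3.10.9.

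The members, the 17 gene lists (148 genes, 141 measured) and the alternatives were chosen with earlier results of these data known. Named were all members, the microRNA genes, and list genes past the threshold or with the smallest p-values, and others after their values were seen. The alternatives covered a replicate block, single arrays left out, 2 normalizations, 2 filters, averaged rows, 2 variance priors, array weights and, added after the data were seen, protein-coding genes only. Deviations of same-numbered arrays from their group means correlated at -0.013, -0.086 and 0.040, so the numbers were not taken as pairs.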

Additional observations from a re-analysis of the deposited data

How the results depend on the processing

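The 10 genes' differences kept their sign under each of the 16 alternatives in which they were tested, except for Myl4, which ranged from -0.074 to 0.015 with 1 array left out. Their count past the threshold was 0 with limma in the main fit and with any array left out. It was 1 when genes below the median row were left out and 4 with either mean-trended prior. The median difference, -0.085, ranged from -0.091 to -0.065 with 1 array left out and was -0.11 under quantile normalization. It was -0.12 with either filter on dim genes, which removed Myh3. Over all genes the count of 95 was 149 under quantile normalization, 617 and 235 with the filters, 866 with either mean-trended prior, 243 with array weights and 2 to 25 with 1 array left out. With the replicate block, where numbers do not mark pairs, limma called 0 genes and 0 of the members, with 2744 genes and 3 members at an unadjusted p under 0.05. The number of arrays limits the comparison, and without detection calls the Myh3 and Mir499 rows lie in the range where signal cannot be told from background.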

Other observations

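Genes listed as non-muscle and smooth muscle myosin II had a median above 0. The median of the 10 members was -0.085, though Myl7, a cardiac chain, also stood above 0. That contrast was not tested. Of 10 measured, 6 were above 0 with a median of 0.076 and 0 passed (limma), with 2 at an unadjusted p under 0.05. Over all genes 50% were below 0 and 14.5% reached that p. Myh9, a non-muscle heavy chain, averaged 9.11 in Hdac3-Isl1KO and 8.89 in Hdac3-flox/flox (difference 0.22, limma adjusted p = 0.302), and Myh11, the smooth muscle heavy chain, 5.92 and 5.71 (0.21, 0.226). Both had separated groups.

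Of 12 genes for myosin kinases, phosphatase subunits and folding factors, 9 were below 0 with a median of -0.054 and 0 passed (limma), with 1 at an unadjusted p under 0.05. That gene was Ppp1r12c, a myosin phosphatase subunit, at 7.69 in Hdac3-Isl1KO and 7.92 in Hdac3-flox/flox (difference -0.23, limma adjusted p = 0.238). Mylk3, the cardiac kinase that phosphorylates the regulatory light chain, differed by -0.10 (-0.25 to 0.045, limma adjusted p = 0.505), and Unc45b and Smyd1, which help myosin fold and assemble, by 0.0017 and -0.074 (0.994 and 0.650).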
